A study of Mus musculus with 4 samples.

Results

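The genes described here are 7 genes of the MHC class II antigen presentation pathway, H2-Aa, H2-Ab1, H2-Eb1, Cd74, H2-DMa, H2-DMb1 and Ciita, chosen by symbol and not by their values. All 7 were found among the 32285 genes of the expression matrices. They were followed in 4 CITE-seq libraries, in which the RNA of single cells and antibody-derived tags on their surface are counted together as unique molecular identifiers (UMIs). The cells were live CD3+ cells sorted from subcutaneous tumors of the Tsc2-deficient mouse kidney tumor line 105K in wild-type C57BL/6J mice, males that were 6 weeks old at injection. Tumors carried in 2 libraries a hairpin without a target (sh-NC, the control) and in the other 2 a single hairpin to Cd276, which encodes the checkpoint protein B7-H3 (sh-B7-H3 (1), the knockdown). The hairpins were in the tumor cells, so the sorted host cells carried neither. All groups share the Tsc2 deficiency of the line, and only 1 hairpin against Cd276 was profiled. The labels describe 80 tumors of a group pooled, sorted and loaded on duplicate lanes, whereas the study's legends speak of tumors pooled as 2 separate samples and its methods of a single lane. Read by the labels, p-values measure the spread between lanes of 1 pool, and on either reading every library holds cells of many pooled tumors and the spread between mice was not measured. Handling that differed between the pools cannot be told apart from the knockdown.

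Class II molecules present peptides from endosomes to CD4+ T cells, and macrophages, dendritic cells and B cells are known for carrying them. H2-Aa and H2-Ab1 encode the alpha and beta chains of I-A, and H2-Eb1 the beta chain of I-E, whose alpha chain C57BL/6 mice lack. Cd74, the invariant chain, fills the groove of new class II molecules, the cathepsin encoded by Ctss trims it, and the heterodimer of H2-DMa and H2-DMb1 exchanges its last fragment for peptide. Ciita is the coactivator that is recruited to class II promoters by the RFX complex on the X box, by NF-Y on the Y box and by CREB. Conventional mouse T cells are known for making little class II of their own.

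Of the members, 5 lie together on chromosome 17 (GRCm38, GENCODE M21), namely H2-DMa at 34119541 to 34139101, H2-DMb1 at 34153072 to 34160230 and H2-Ab1 at 34257689 to 34269419 on the plus strand, H2-Aa at 34282744 to 34287823 on the minus strand, and H2-Eb1 at 34305867 to 34316674 on the plus strand. Ciita lies on chromosome 16 at 10480059 to 10528418 on the plus strand. RefSeq promoter windows (GRCm38.p6) were matched for 4 of the 7 members (H2-Aa, H2-Eb1, H2-DMa and H2-DMb1) and not for H2-Ab1, Cd74 and Ciita. The promoter stretches of an alpha and a beta chain gene that moved alike below are printed to show what they have in common, with the X-box core GNAAC and the Y-box core GATTGG in capitals. The stretches lie upstream of the genes' starts at chr17:34287857-34287914 (H2-Aa, minus strand) and chr17:34305766-34305822 (H2-Eb1, plus strand).
H2-Aa: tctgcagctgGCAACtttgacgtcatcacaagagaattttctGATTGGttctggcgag
H2-Eb1: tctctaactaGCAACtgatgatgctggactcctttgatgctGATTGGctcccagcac
The Y core ended 43 bases before the start of H2-Aa and 54 bases before that of H2-Eb1, and 27 and 26 bases separated the cores. A search of the 250 bases before each start on both strands, with GNAAC followed by GATTGG after 20 to 35 other bases so that the cores do not overlap, found the pair in 259 of 32851 promoter windows (0.788%), and GATTGG by itself in 14.6%. These letters and distances were chosen after the members' promoters had been read. The pair was present in 3 of the 4 members with a window, H2-Aa, H2-Eb1 and H2-DMb1, and in neither window of H2-DMa. The H2-DMb1 window, at 34152941 to 34153240, reaches past the gene's start at 34153072 as placed above. Its pair lies inside the gene so placed and not upstream of it. Both H2-DMa windows lie inside the gene as placed above and do not cover its start at 34119541, so the bases before that start were not searched. Among 18 other genes of the pathway list described below, 3 held it, namely H2-Eb2, H2-Oa and H2-Ob.

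Values below are given in the order control library 1, control library 2, knockdown library 1, knockdown library 2 unless said otherwise. The libraries held 12112, 10589, 7030 and 9129 called barcodes with 132820909, 126586948, 79224898 and 102213924 RNA UMIs, and 17 to 35 barcodes were shared between any pair of libraries, at most 0.427% of the smaller one. Cd276 had 10, 10, 9 and 11 UMIs in the called barcodes, so the sorted cells do not check the knockdown, which was made in tumor cells. The 2 knockdown libraries differed from each other in some tag levels, so tags are given by library. Cells were divided by their own RNA. C1q-positive cells had at least 3 UMIs of the macrophage complement genes C1qa, C1qb and C1qc together. Among the cells without any C1q UMI, Foxp3 cells held a Foxp3 UMI and no Cd8a or Cd8b1 UMI, Cd4 cells held a Cd4 UMI and no Foxp3, Cd8a or Cd8b1 UMI, and Cd8 cells held at least 3 Cd8a and Cd8b1 UMIs and neither Cd4 nor Foxp3 UMIs.

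C1q-positive cells numbered 256, 254, 665 and 724. They made up 2.11, 2.40, 9.46 and 7.93% of called barcodes, with exact 95% binomial intervals from 1.86 to 2.39% in control library 1 and from 8.79 to 10.2% in knockdown library 1, which cover counting error only. Both knockdown libraries lay above both control libraries, and the exact permutation test of 2 against 2 libraries (two-sided) cannot go below p = 0.33, its value here. Although the sort was for CD3, all 12 macrophage marker genes were detected in these cells in every library, 9 of which the class rule did not use, among them Csf1r, Adgre1, Mrc1 and Mertk. The tag against CD11b, an integrin of myeloid cells, took 42.4 to 98.4 of 10000 tag UMIs in them and 6.57 to 22.3 in the T cell classes. The tag against the macrophage protein F4/80 did not separate them, with 8.77 to 10.8 of 10000 against 7.68 to 9.55. Nor did the tag against CD115, the protein of Csf1r, with 1.35 to 1.77 of 10000 in them against 1.53 to 2.98 in the T cell classes. Most of them also carried T cell RNA: 212 of 256, 210 of 254, 543 of 665 and 618 of 724 held a UMI of Cd3d, Cd3e or Cd3g, and after removal of called doublets (droplets with more than 1 cell) 102, 98, 209 and 230 cells were left. C1q-positive is therefore the name of the rule and not of a pure cell type. Foxp3 cells fitted their label, since Il2ra, the CD25 gene of regulatory T cells, stood at 179 to 252 CPM (UMIs per 1000000 UMIs of the class) in them against 8.27 to 11.5 CPM in Cd4 cells.

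The C1q-positive cells held most of the RNA of 5 of the 7 members. Of all UMIs of H2-Aa in a library, 87.1, 88.2, 92.1 and 89.3% were in C1q-positive cells. For H2-Ab1 the shares were 89.5, 89.6, 92.5 and 90.5%, and for H2-Eb1 90.1, 91.8, 93.4 and 90.9%. Cd74 was spread somewhat wider, with 81.2, 78.0, 88.4 and 86.2% in C1q-positive cells, and H2-DMb1 had 85.4, 79.9, 92.4 and 81.0% there. Thus 3 chain genes, the invariant chain and a DM gene were found mainly in a class of cells that made up a small share of each library. The other members were not. H2-DMa had 10.5, 8.49, 34.9 and 27.1% of its UMIs in C1q-positive cells and 38.9, 39.7, 18.1 and 20.1% in Cd8 cells, and Ciita had 38.1, 18.5, 38.1 and 28.3% in C1q-positive cells on no more than 75 UMIs a library. H2-DMb1 has a near-identical neighbour, H2-DMb2, and reads that the counting could split between them make its values uncertain.

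**Figure D1:**
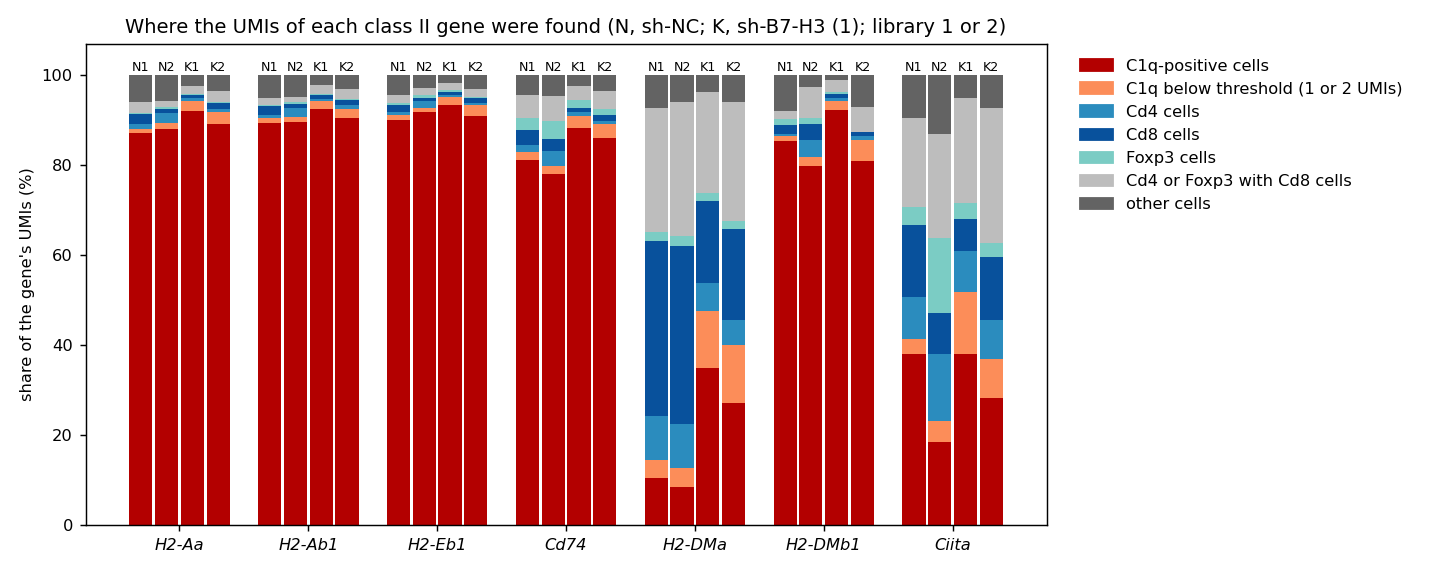
Share of each gene's UMIs (y axis, percent of all UMIs of that gene in called barcodes) by cell class, with 1 bar per library (N1 and N2, sh-NC; K1 and K2, sh-B7-H3 (1)) and stacked colors for the classes. C1q-positive cells fill 78.0 to 93.4% of the bars of H2-Aa, H2-Ab1, H2-Eb1, Cd74 and H2-DMb1. H2-DMa is spread over several classes, with more in Cd8 than in C1q-positive cells in N1 and N2 and the reverse in K1 and K2.

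In the whole libraries class II RNA rose with the knockdown. H2-Aa stood at 38.0, 29.5, 113 and 93.8 CPM, and Cd74 at 139.5, 109.9, 371 and 315 CPM, with both knockdown libraries above both control libraries, as for 58.4% of all genes tested. By edgeR's quasi-likelihood test with Benjamini-Hochberg adjustment over all genes, which was used for every adjusted p here, 6 of the 7 members were higher and 1 was lower at an adjusted p under 0.05, in a comparison in which 27.5% of all 15339 genes tested passed as higher and 28.6% as lower. The log2 fold changes were 1.46 ± 0.10 (SE) for H2-Aa (adjusted p = 9.3e-07), 1.54 ± 0.12 for H2-Ab1, 1.60 ± 0.11 for H2-Eb1, 1.30 ± 0.10 for Cd74, 1.02 ± 0.18 for H2-DMb1 (0.67 without control library 2) and 1.25 ± 0.13 for Ciita. H2-DMa fell by 0.37 ± 0.03 on the log2 scale (adjusted p = 3.1e-06). C1q-positive cells held 2.87, 3.45, 20.3 and 14.5% of all RNA UMIs, and from these sums alone more cells and more RNA per cell cannot be told apart. Of the UMIs of all 7 members together, C1q-positive cells held 72.9, 69.1, 87.5 and 84.2%.

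Within the C1q-positive cells, levels as CPM were lower in the knockdown. H2-Aa stood at 1155, 755, 514 and 576 CPM (955 ± 283 against 545 ± 44.1, SD, n = 2 each). Cd74 stood at 3947, 2487, 1616 and 1866 CPM, and the peptide-loading gene H2-DMa at 181, 116, 72.3 and 76.5 CPM. Control library 1 was the highest of the 4 for every member, and both knockdown libraries lay below both controls for 6 of the 7, as they did for 22.6% of all genes tested. For Ciita, with 12.6, 4.58, 4.66 and 4.44 CPM, control library 2 lay between the knockdown libraries. By edgeR, 6 of 7 members were lower, where 10.9% of the 11709 genes tested were lower and 8.28% higher. The log2 fold changes were -0.91 ± 0.17 for H2-Aa (adjusted p = 0.0078), -0.85 ± 0.19 for H2-Ab1 (0.016), -0.80 ± 0.18 for H2-Eb1 (0.018), -0.99 ± 0.18 for Cd74 (0.0078), -1.10 ± 0.17 for H2-DMa (0.0042), -1.35 ± 0.29 for H2-DMb1 (0.016) and -0.99 ± 0.39 for Ciita (0.11). The calls of H2-Ab1, H2-Eb1 and H2-DMb1 were lost without knockdown library 1, at adjusted p of 0.087, 0.0996 and 0.074, while no direction turned when any 1 library was left out. Without control library 1 the falls were smaller, at -0.56 for H2-Aa, -0.45 for H2-Ab1, -0.41 for H2-Eb1, -0.61 for Cd74 and -0.66 for H2-DMb1, and without control library 2 Ciita passed as well (-1.57, against -0.10 without control library 1). DESeq2 gave the same directions but kept the calls of H2-Aa and H2-DMa only, with adjusted p of 0.14 for H2-Ab1, 0.16 for H2-Eb1, 0.054 for Cd74 and 0.13 for H2-DMb1.

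**Figure D2:**
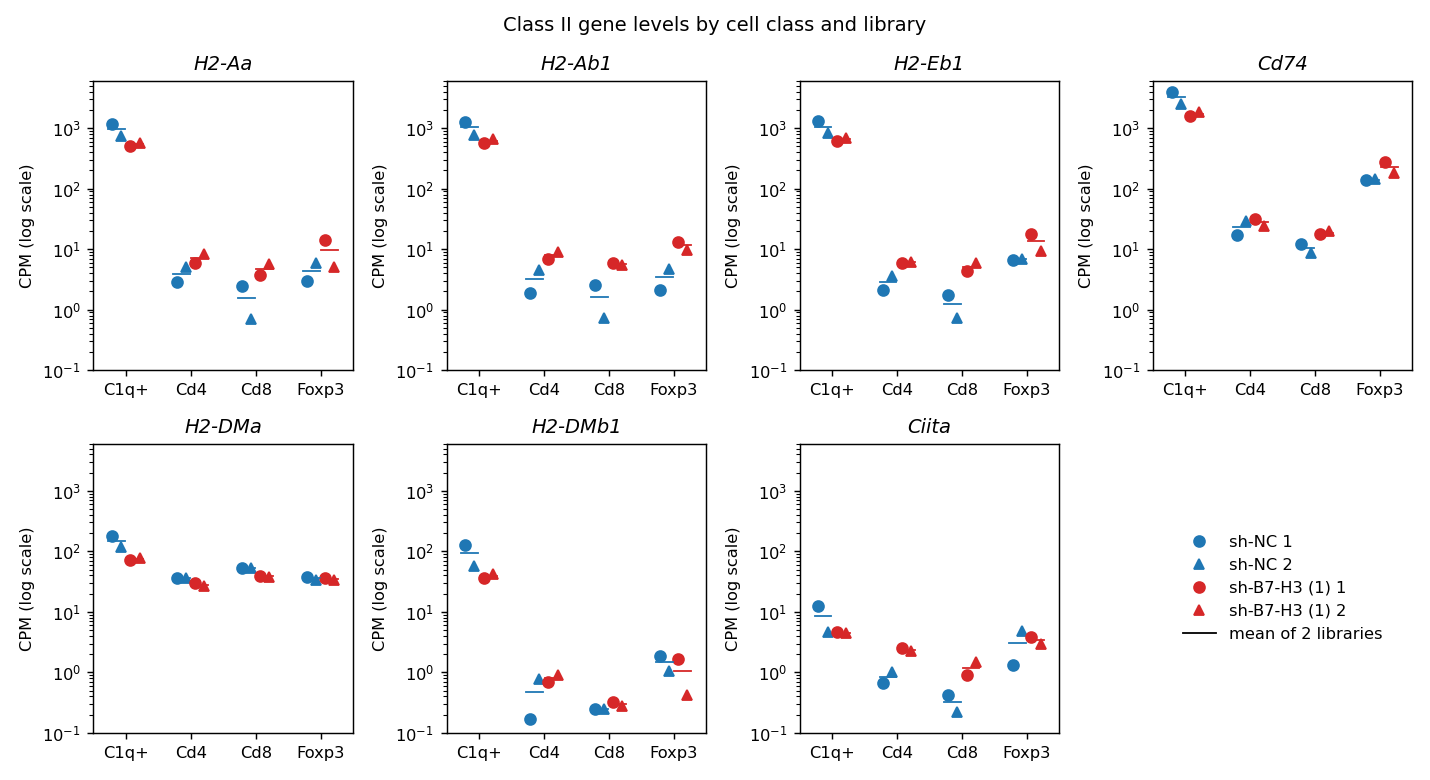
Level of each member (y axis, CPM on a log scale) in C1q-positive, Cd4, Cd8 and Foxp3 cells, with 1 point per library (circles, library 1; triangles, library 2; blue, sh-NC; red, sh-B7-H3 (1)) and a line at the mean of 2 libraries. H2-Aa lies at 514 to 1155 CPM in C1q-positive cells and at 0.696 to 14.4 CPM in the T cell classes, and Cd74 is higher in Foxp3 cells than in Cd4 or Cd8 cells.

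The RNA of other cell types moved with these values. In C1q-positive cells the 9 macrophage markers outside the class rule were lower along with the members (summed to 9016, 5784, 2981 and 3838 CPM) and the 7 T cell markers were higher (5019, 5058, 6166 and 6096 CPM). The 6 B cell markers summed to 25.2, 36.7, 13.0 and 10.8 CPM, the 8 dendritic markers to 1.31 to 2.89 CPM with Cd209a at 0 in every library, and the 3 granulocyte markers to 151 CPM in control library 2 against 1.12 to 2.36 CPM in the others. The median C1q-positive cell held 10237.5, 10542, 12505 and 11164.5 UMIs. Its H2-Aa, H2-Ab1 and H2-Eb1 UMIs together numbered 16, 13, 17 and 18, and this median did not show the fall that the CPM did. Per 10000 UMIs of the cell, the median of these genes was 19.5, 13.0, 12.6 and 16.1, with overlapping groups. The mean per cell was lower in both knockdown libraries for 4 of the 7 members, as for 5.1% of all genes tested, with 17.2, 13.0, 12.4 and 11.8 UMIs of H2-Aa, 58.8, 42.7, 39.1 and 38.3 of Cd74, 2.70, 1.99, 1.75 and 1.57 of H2-DMa and 1.92, 0.988, 0.875 and 0.860 of H2-DMb1. The means of H2-Ab1 (19.1, 13.5, 13.9 and 13.3), H2-Eb1 (19.4, 14.1, 14.9 and 14.3) and Ciita overlapped between the groups.

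With the C1q-positive cells restricted to those without a Cd3 UMI, the direction of the CPM turned for H2-Aa, H2-Ab1, H2-Eb1 and Cd74. These cells, 44, 44, 122 and 106, had fewer UMIs, at medians of 1523, 1852, 1610.5 and 1693.5 UMIs per cell. The part of this depth in the turn was not tested. H2-Aa stood at 5217, 4838, 6004 and 5770.1 CPM in them. H2-Ab1 stood at 5041, 5112, 6843 and 6645 CPM, H2-Eb1 at 6055, 5139.8, 7402 and 7498 CPM, and Cd74 at 16900.2, 16334, 19005 and 18599 CPM. Every knockdown library lay above both control libraries for these 4 genes, as for 15.4% of all genes tested. They passed as higher, with log2 fold changes of 0.40 ± 0.09 for H2-Aa (adjusted p = 0.037), 0.58 ± 0.09 for H2-Ab1 (0.0039), 0.58 ± 0.10 for H2-Eb1 (0.0083) and 0.35 ± 0.08 for Cd74 (0.027). In this comparison 3.14% of 2354 genes passed as higher and 1.70% as lower. H2-DMa (-0.24 ± 0.20, adjusted p = 0.56), H2-DMb1 (0.07 ± 0.24, 0.90) and Ciita (-2.11 ± 0.63, 0.089, on 14, 11, 1 and 6 UMIs) did not pass. The H2-DMa levels were 715, 488, 433 and 473 CPM. As the mean per cell, however, H2-Aa, H2-Ab1, H2-Eb1 and Cd74 were each lower in both knockdown libraries. The 122 and 106 knockdown cells held 253990 and 238992 RNA UMIs in all, against 170590 and 182498 in the 44 and 44 control cells. The share of all genes that were lower on this scale is not given here.

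As CPM, the same 4 genes were also higher after removal of called doublets, by 0.46 ± 0.07 for H2-Aa, 0.65 ± 0.07 for H2-Ab1, 0.64 ± 0.07 for H2-Eb1 and 0.38 ± 0.05 for Cd74, in a fit in which 0.975% of 6771 genes passed as higher. Per cell, the 7 members together had fewer UMIs in both knockdown libraries, with 15451, 13355, 20554 and 22341 UMIs in 102, 98, 209 and 230 cells. All RNA UMIs of these cells numbered 787562, 697938, 826035 and 961650, so the cells of the knockdown libraries held less RNA of any kind on average. The share of all genes that were lower on this scale is not given here. Apoe, a lipid carrier abundant in macrophages, rose in the cells without a Cd3 UMI too (26924, 23546, 36124 and 33712 CPM, log2 fold change 0.64 ± 0.09, adjusted p = 0.002), while Lyz2, the lysozyme of myeloid cells, had 14163, 6630.2, 5406 and 4950.0 CPM and did not pass. Per cell, the median without a Cd3 UMI held 15.5, 13, 17 and 20.5 UMIs of H2-Aa, H2-Ab1 and H2-Eb1 together, whereas the mean per cell of each was lower in both knockdown libraries. The median over cells of these genes' UMIs per 10000 UMIs of the cell was 115, 82.2, 131 and 152. Thus the direction of these 4 genes in C1q-positive cells depended on which cells were counted and on the scale. What in the choice of cells turned the CPM was not tested.

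**Figure D3:**
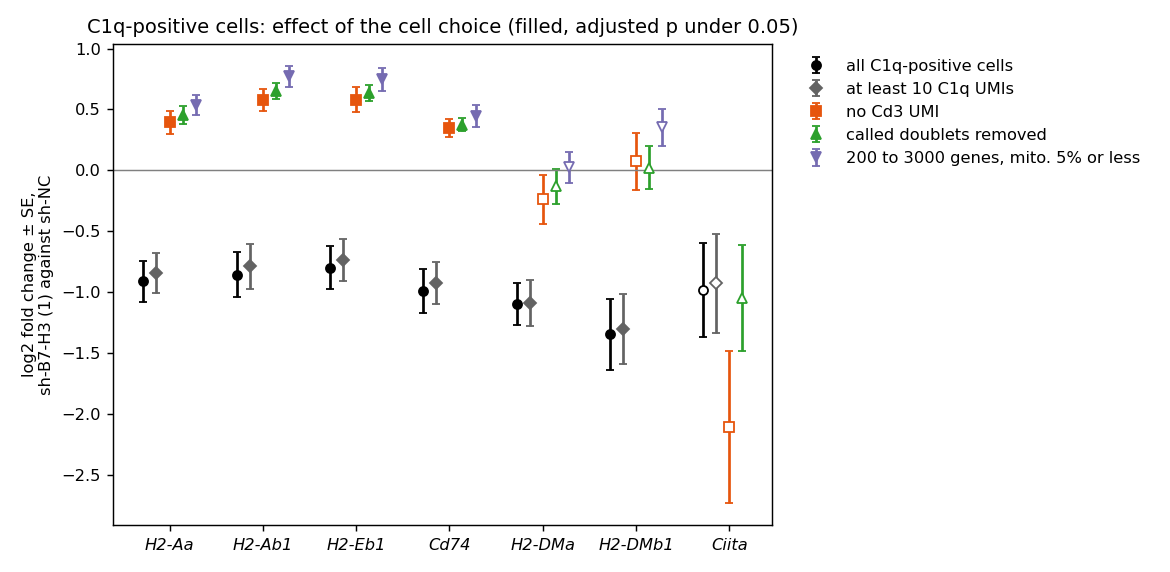
Log2 fold change with its SE (y axis, sh-B7-H3 (1) against sh-NC, edgeR) of each member (x axis) in C1q-positive cells under 5 choices of cells, with filled symbols where the adjusted p is under 0.05. For H2-Aa, H2-Ab1, H2-Eb1 and Cd74 the values for all C1q-positive cells and for those with at least 10 C1q UMIs lie below 0, and the values without a Cd3 UMI, without called doublets or within the study's limits on genes and mitochondrial share lie above 0. Ciita has no value within those limits.

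In Cd4 cells, the helper T cells that recognize class II, the chain genes were low in the control and higher in the knockdown. H2-Aa stood at 2.83, 5.09, 6.01 and 8.47 CPM, on 43 to 80 UMIs a library, and H2-Ab1 at 1.87, 4.58, 6.84 and 8.92 CPM. Both knockdown libraries lay above both controls, as for 40.9% of all genes tested. By edgeR, 4 of 6 members tested were higher and 1 was lower, where 20.3% of all 11550 genes tested were higher and 18.8% lower. The log2 fold changes were 0.85 ± 0.25 for H2-Aa (adjusted p = 0.0083), 1.27 ± 0.28 for H2-Ab1 (0.00078), 1.04 ± 0.25 for H2-Eb1 (0.002) and 1.42 ± 0.38 for Ciita (0.0044, on 12 to 20 UMIs a library). The call of H2-Aa was lost without control library 1 (adjusted p = 0.11) and without knockdown library 2 (0.196), and that of Ciita without control library 1 (0.078). Without control library 1 the log2 fold changes of H2-Aa, H2-Ab1 and H2-Eb1 were 0.47, 0.74 and 0.69, and without control library 2 they were 1.30, 2.01 and 1.46. Without knockdown library 2 that of H2-Aa was 0.54. Under DESeq2 H2-Aa (adjusted p = 0.098), H2-Ab1 (0.18) and Ciita (0.092) kept their direction and lost their calls. Cd74 stood at 17.1, 29.1, 31.7 and 24.0 CPM with overlapping groups and did not pass (0.20 ± 0.16, adjusted p = 0.35). H2-DMb1 had at most 12 UMIs in any library of any T cell class and was not tested there.

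In Cd8 cells, the cytotoxic T cells, 5 of 6 members tested were higher and 1 was lower, where 24.0% of all 12634 genes tested were higher and 22.4% lower. H2-Aa stood at 2.43, 0.696, 3.75 and 5.79 CPM, and the log2 fold change was 1.57 ± 0.31 (adjusted p = 0.00026). H2-Ab1 and H2-Eb1 changed by 1.70 ± 0.28 and 2.02 ± 0.25. The size for H2-Aa and H2-Ab1 rested on which control library was used, with 2.75 and 2.86 without control library 1 and 0.94 and 1.09 without control library 2, and their calls held in both. Cd74 rose from 12.3 and 8.65 CPM in the controls to 17.9 and 19.7 CPM (0.79 ± 0.11, adjusted p = 6.5e-06). Ciita rose by 1.86 ± 0.38 (adjusted p = 0.00033), on 20, 10, 14 and 33 UMIs, and lost its call without knockdown library 2 (adjusted p = 0.052). Both knockdown libraries lay above both controls for these 5 genes, as for 43.9% of all genes tested, and under DESeq2 H2-Aa (adjusted p = 0.198) and H2-Ab1 (0.103) lost their calls. In Foxp3 cells 2 of 6 members tested were higher and none was lower, where 2.38% of all 9688 genes tested were higher and 1.75% lower. They were H2-Ab1 (2.15, 4.76, 13.3 and 9.82 CPM, on 8 to 24 UMIs, log2 fold change 1.72 ± 0.38, adjusted p = 0.026) and Cd74 (138, 145, 277 and 180.2 CPM, 0.68 ± 0.14, adjusted p = 0.019). The call of H2-Ab1 was lost without control library 1 (0.0803) and without knockdown library 1 (0.084), and that of Cd74 under DESeq2 (0.13), while Cd74 came to 0.37 without knockdown library 1. With replicate number as a block, H2-Eb1 passed as well (0.97, adjusted p = 0.036).

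A few T cells held many of these UMIs in some libraries. Cells with at least 5 UMIs of H2-Aa, H2-Ab1 and H2-Eb1 numbered 1, 4, 1 and 1 among Cd4 cells and carried 48.3, 78.9, 5.19 and 16.6% of the 120, 209, 135 and 211 UMIs of the class, so both controls lay above both knockdown libraries. Among Cd8 cells 8, 2, 0 and 2 such cells carried 67.3, 10.4, 0 and 15.2%, and among Foxp3 cells 1, 2, 3 and 1 carried 18.2, 39.4, 32.9 and 8.77%, with overlapping groups in both classes. Cd4 cells with any such UMI made up 2.80, 2.46, 12.1 and 12%, and Cd8 cells 2.47, 2.10, 11.4 and 12%. At 1000 UMIs per cell (22 to 55 shallower Cd4 cells a library left out) the share of Cd4 cells with an H2-Aa UMI was 0.193, 0.347, 1.07 and 1.03%, on 4 to 12 cells, close to what single UMIs allow.

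Other RNA moved with these rises. In Cd4 cells the 9 macrophage genes outside the rule, with the C1q genes at 0 by construction, summed to 9.23, 9.42, 40.8 and 43.4 CPM, with Mertk at 0 in every library. They summed to 8.83, 9.91, 36.7 and 37.3 CPM in Cd8 cells and to 11.6, 13.5, 56.6 and 49.1 CPM in Foxp3 cells. In the knockdown libraries Apoe made up most of these sums, as it did in Cd4 cells of the controls. It had 99, 86, 232 and 305 UMIs in Cd4 cells, which held fewer RNA UMIs in the knockdown libraries. As CPM scaled in the edgeR fit, Apoe stood at 5.76, 5.57, 31.6 and 33.5 there. The 6 B cell markers did not show such a rise, with 4.76, 8.15, 3.49 and 4.46 CPM in Cd4 cells and 18.2, 15.3, 10.8 and 11.4 CPM in Cd8 cells. The 3 NK markers did, with 4.64, 6.43, 33.1 and 42.1 CPM in Cd4 cells and 6.17, 6.02, 34.3 and 37.1 CPM in Cd8 cells, nearly all of it Klre1, a lectin-like receptor gene. Ncr1, the defining NK receptor gene, was at 0 in every library of Cd4 cells and had 1, 0, 0 and 0 UMIs in Cd8 cells. RNA outside cells was read from uncalled barcodes with at most 100 UMIs, where H2-Aa stood at 23.0, 29.5, 96.0 and 79.1 CPM, Cd74 at 83.1, 94.1, 320.2 and 275 CPM, and Apoe at 177, 211, 659 and 563 CPM. H2-Aa in every T cell class was thus below its level in uncalled barcodes of the same library. It rose with the knockdown in uncalled barcodes and in Cd4 and Cd8 cells, while in Foxp3 cells the groups overlapped, on 11, 22, 26 and 12 UMIs.

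Ratios to Apoe put the sources side by side. Per 100 Apoe UMIs, uncalled barcodes held 13.0, 14.0, 14.6 and 14.0 UMIs of H2-Aa and C1q-positive cells 17.9, 17.4, 20.9 and 18.7. Cd4 cells held 50.5, 93.0, 18.5 and 24.9, and Cd8 cells 48.5, 12.4, 13.8 and 20.9. Foxp3 cells held 64.7, 81.5, 33.8 and 13.3, on 11, 22, 26 and 12 UMIs of H2-Aa. In the knockdown, Cd4 and Cd8 cells were thus near the ratio of uncalled barcodes and C1q-positive cells, Foxp3 cells of knockdown library 1 lay above it, and 5 of the 6 control values lay above it. The part of free RNA in the rise of the chain genes in T cells was not tested. When cells with a UMI of any of 10 genes of myeloid, B or dendritic cells (among them Lyz2, Csf1r, Fcer1g, Cd79a, Ms4a1, Flt3, Xcr1, Clec9a and Cd209a) were left out, the rises were larger, with H2-Aa at 2.30 ± 0.29 in Cd4 cells (adjusted p = 9.7e-09) and 2.55 ± 0.23 in Cd8 cells (3.6e-16). Cd74 then passed in Cd4 cells as well (0.62 ± 0.12, adjusted p = 5.4e-05).

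**Figure D4:**
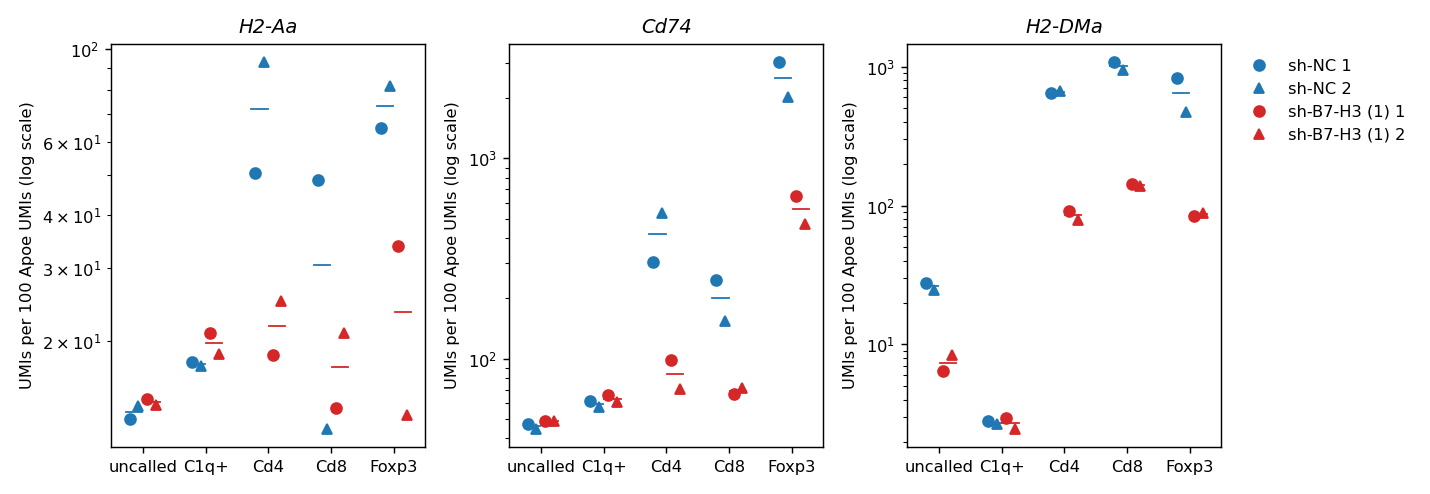
UMIs of H2-Aa, Cd74 and H2-DMa per 100 Apoe UMIs (y axis, log scale with a separate range in each panel) in uncalled barcodes and in the 4 cell classes, with 1 point per library and a line at the mean of 2. H2-Aa lies at 13.0 to 14.6 in uncalled barcodes and at 12.4 to 24.9 in knockdown Cd4 and Cd8 cells and Cd8 cells of control library 2, whereas Cd74 in Foxp3 cells lies at 469 or more against 48.8 or less in uncalled barcodes.

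Cd74 in Foxp3 cells, the regulatory T cells, stood apart from the other T cells in both groups. The levels were 138, 145, 277 and 180.2 CPM in Foxp3 cells, 17.1, 29.1, 31.7 and 24.0 CPM in Cd4 cells and 12.3, 8.65, 17.9 and 19.7 CPM in Cd8 cells, and each Foxp3 value lay above all values of the other T cells. In 1 fit of the 3 T cell classes with library as a block, Cd74 was higher in Foxp3 than in Cd4 cells by 2.64 ± 0.17 on the log2 scale (adjusted p = 8.5e-08) and than in Cd8 cells by 3.37 ± 0.17 (1.8e-09). Of the 6 members that passed the filter within each class, 2 were higher and none lower in Foxp3 than in Cd4 cells, where 14.7% of all 11756 genes were higher and 13.1% lower. Against Cd8 cells 3 of 6 were higher and 1 lower, where 20.6 and 20.4% were. Cd8 cells were lower than Cd4 cells by 0.73 ± 0.18 in Cd74 (0.008), and by 0.38 without control library 2.

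A Cd74 UMI was seen in 36.2, 41.8, 45.7 and 49.5% of Foxp3 cells, 6.74, 7.49, 13.5 and 11.5% of Cd4 cells and 6.23, 6.43, 13.9 and 12.6% of Cd8 cells. The exact 95% interval of the lowest Foxp3 value was 31.8 to 40.8%. Thinned to 1000 UMIs per cell (5 to 13 Foxp3 cells, 22 to 55 Cd4 cells and 10 to 14 Cd8 cells a library left out), the shares were 11.8, 12.2, 18.4 and 15.3% of Foxp3 cells, 1.64, 1.80, 2.56 and 2.07% of Cd4 cells and 1.01, 0.658, 2.08 and 2.35% of Cd8 cells. Foxp3 cells had the highest share of the 3 classes in every library at equal depth too, while the order of Cd4 and Cd8 cells changed between libraries. Of the Foxp3 cells with a Cd74 UMI, 87.5, 88.2, 76.2 and 85.5% had no UMI of H2-Aa, H2-Ab1 or H2-Eb1. Per 100 Apoe UMIs, Foxp3 cells held 3024, 2029.6, 649 and 469 Cd74 UMIs against 47.1, 44.7, 48.6 and 48.8 in uncalled barcodes, so the ratio lay above that of uncalled barcodes in every library. Without cells holding any of the 10 genes of other antigen-presenting cells, the difference was 3.10 ± 0.11 from Cd4 and 3.62 ± 0.10 from Cd8 cells, and the knockdown's change of Cd74 in Foxp3 cells was 0.65 ± 0.14 (adjusted p = 0.0075).

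Of the chain genes, H2-Eb1 was higher in Foxp3 cells too, and no difference was called for H2-Aa and H2-Ab1 between Foxp3 and Cd4 cells. H2-Aa differed between Foxp3 and Cd4 cells by 0.09 ± 0.47 (adjusted p = 0.92) and H2-Ab1 by 0.19 ± 0.44 (0.80), with SEs larger than the differences. H2-Eb1 was higher in Foxp3 cells by 1.02 ± 0.36 than in Cd4 cells (0.049; lost without control library 1, at 0.18, and without knockdown library 1, at 0.21) and by 1.57 ± 0.35 than in Cd8 cells (0.0025). Ciita was higher in Foxp3 than in Cd8 cells by 2.04 ± 0.46 (0.0027; 1.25 without control library 2), on 5, 18, 7 and 7 UMIs in Foxp3 cells, and not in a call against Cd4 cells (1.05 ± 0.45, 0.11).

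H2-DMa followed a course of its own. It was present in T cells at 36.1, 36.8, 29.8 and 26.8 CPM in Cd4 cells, 53.9, 53.1, 38.5 and 38.4 CPM in Cd8 cells, and 37.6, 33.6, 36.0 and 34.2 CPM in Foxp3 cells. It was highest in Cd8 cells in every library, by 0.64 ± 0.07 over Cd4 cells (adjusted p = 1.7e-05), and Foxp3 cells were lower than Cd8 cells by 0.71 ± 0.09 (2.9e-05). With the knockdown it fell by 0.43 ± 0.08 in Cd4 cells (0.00013) and by 0.53 ± 0.04 in Cd8 cells (1.2e-09), while in Foxp3 cells the change was -0.01 ± 0.15 (0.98). Uncalled barcodes held 48.7, 52.0, 42.6 and 47.0 CPM. Per 100 Apoe UMIs, however, Cd8 cells held 1075, 942, 142 and 139 UMIs of H2-DMa against 27.6, 24.7, 6.47 and 8.34 in uncalled barcodes and 2.48 to 2.94 in C1q-positive cells. H2-DMa was the 1 member called lower in Cd4 and Cd8 cells, in which the macrophage RNA was higher. In Foxp3 cells the macrophage RNA was higher too, and no change of H2-DMa was called. The part of free RNA in the H2-DMa values was not tested.

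The knockdown's effect itself differed between T cells and C1q-positive cells as defined. In 1 fit of 16 sums with library as a block, the effect in Cd4 cells minus that in C1q-positive cells was above 0, at an adjusted p under 0.05, for 6 of the 6 members that passed the filter within the T cells (9.51% of all 12938 genes passed in that direction and 7.37% in the other), in Cd8 cells for 6 (8.42 and 5.24%) and in Foxp3 cells for 4 (3.48 and 1.44%). H2-DMb1, with too few UMIs in T cells, was left out of these counts. The calls depended on the libraries: when each of the 4 was left out in turn, the call held every time for H2-Eb1 in Cd4 cells and for H2-Aa, H2-Ab1, H2-Eb1 and Cd74 in Cd8 cells, and was lost at least once for every other member, including all 4 in Foxp3 cells. No difference that had passed changed its direction. With the C1q-positive cells that had no Cd3 UMI in their place, 1 member passed in Cd4 cells (Ciita; 1.16% of 11773 genes), 4 in Cd8 cells (Ciita, H2-Ab1, H2-Aa and H2-Eb1; 1.19%) and none in Foxp3 cells (0.416%). All these comparisons use the same 4 libraries.

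The surface tag against I-A/I-E measured the protein on the same cells. In C1q-positive cells it took 563, 419, 276 and 285 of 10000 tag UMIs, in Cd4 cells 57.0, 60.9, 81.8 and 82.4, in Cd8 cells 59.9, 58.4, 82.7 and 85.2 and in Foxp3 cells 129, 120.5, 154 and 139. Uncalled barcodes held 14.7, 15.1, 17.7 and 24.8. The tag share was thus lower in the knockdown in C1q-positive cells and higher in all 3 T cell classes, without overlap, and the exact permutation test of 2 against 2 libraries gave p = 0.33 for each, the smallest it can give. The share of all tags that moved without overlap is not given here. The CD11b tag moved likewise, at 7.01, 7.35, 13.4 and 13.1 in Cd4 cells and 98.4, 88.4, 42.4 and 48.9 in C1q-positive cells. The F4/80 tag overlapped between the groups in Cd4 cells (9.18, 9.38, 8.89 and 9.55). The mean of the isotype control tags, antibodies without a target, rose in T cells as well, with 3.15, 3.05, 4.00 and 4.26 of 10000 in Cd4 cells, 2.70, 2.50, 3.53 and 3.74 in Cd8 cells and 3.03, 2.80, 3.99 and 3.98 in Foxp3 cells, against 2.27, 2.08, 2.01 and 2.13 in C1q-positive cells. As a ratio to that mean the I-A/I-E tag stood at 18.1, 20.0, 20.4 and 19.4 in Cd4 cells and 22.2, 23.3, 23.4 and 22.8 in Cd8 cells, with overlapping groups, at 42.4, 43.1, 38.7 and 34.9 in Foxp3 cells, lower in the knockdown, and at 248, 202, 137 and 134 in C1q-positive cells. The higher tag share of knockdown T cells was thus not seen relative to the isotype tags, and the fall in C1q-positive cells was. As the median per cell, C1q-positive cells had 359.5, 326.5, 374 and 233 tag UMIs, Cd4 cells 13, 12, 19 and 13, Cd8 cells 21, 19, 26 and 19, and Foxp3 cells 32, 30, 37 and 29, and on this scale the groups overlapped or touched. The mean per Foxp3 cell was 70.9, 68.8, 81.5 and 56.2 tag UMIs, and on that scale knockdown minus control came to -1.04.

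In the C1q-positive cells without a Cd3 UMI the tag took 1682, 1313, 985 and 942 of 10000 tag UMIs, with medians of 338, 262, 233.5 and 152 UMIs per cell. The median of all tag UMIs per cell also was lower in the knockdown, at 3565, 2576, 2328.5 and 1898. The isotype tags of these cells and the share of all tags that moved without overlap are not given here. The I-A/I-E tag was lower in both knockdown libraries in the cells in which H2-Aa, H2-Ab1 and H2-Eb1 RNA was higher as CPM, though lower as the mean per cell. Across C1q-positive cells of each library, the tag's share of a cell's tag UMIs and the chain genes' share of its RNA UMIs were related with Spearman's rho of 0.80, 0.80, 0.71 and 0.72 over 256, 254, 665 and 724 cells, a description, since cells of 1 library share its depth and staining and T cell RNA or tags in a droplet lower both shares. Between the UMI counts of the tag and of the chain genes, rho was 0.71, 0.70, 0.42 and 0.46.

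**Figure D5:**
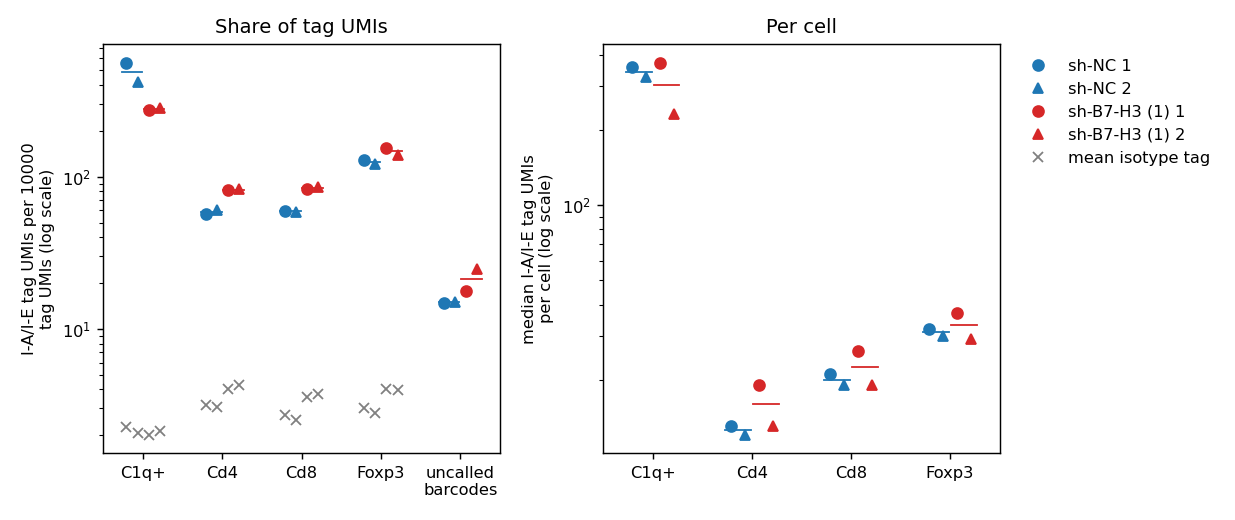
The I-A/I-E tag by class and library, as UMIs per 10000 tag UMIs (left, log scale, with the mean isotype control tag as crosses) and as the median UMIs per cell (right, log scale), with 1 point per library and a line at the mean of 2. C1q-positive cells lie at 276 to 563 per 10000 and the T cell classes at 57.0 to 154, all above the isotype tags at 2.01 to 4.26.

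Across C1q-positive cells, the genes whose levels were most like the mean of H2-Aa, H2-Ab1, H2-Eb1 and Cd74 were, out of 4832 genes, Apoe (mean Pearson r over the 4 libraries 0.753), Ctss (0.744), C1qb (0.722), C1qa (0.722), C1qc (0.682), Cst3 (0.671), Fcer1g (0.661), Tyrobp (0.646), Lyz2 (0.610) and Ctsh (0.583). The C1q genes chose the cells, and all these values share the droplets' mix of macrophage and T cell RNA.

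A list of 24 further genes of the pathway was followed. In C1q-positive cells 23 were tested, 10 were lower and none was higher (median log2 fold change -0.30, against 0.01 over all genes), beside 10.9 and 8.28% of all genes. Those that fell included the proteases that cut the invariant chain or antigen, Ctss by 0.86 ± 0.15 (adjusted p = 0.0069), Lgmn by 1.38 ± 0.16 and Ctsl by 1.53 ± 0.14, the thiol reductase Ifi30 by 1.42 ± 0.20, the myeloid transcription factor Spi1 by 1.36 ± 0.13 and the ubiquitin ligase March1, which removes class II from the surface, by 1.35 ± 0.31. The factors that hold Ciita at promoters did not pass: Rfx5 changed by -0.12 ± 0.19, Rfxank by -0.30 ± 0.16, Rfxap by -0.05 ± 0.09, Nfya by 0.24 ± 0.14, Nfyb by -0.0033 ± 0.11 and Nfyc by 0.23 ± 0.12. In the C1q-positive cells without a Cd3 UMI only 10 of the list could be tested and 1 passed, Ctss, which rose by 0.85 ± 0.10 (adjusted p = 0.00089), where 3.14% of all genes rose.

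In Cd4 cells 4 of 19 tested list genes were higher and 6 lower (20.3 and 18.8% of all genes), in Cd8 cells 5 of 21 higher and 7 lower (24.0 and 22.4%), and in Foxp3 cells 1 of 19 higher and none lower (2.38 and 1.75%). The shares that were higher in Cd4 and Cd8 cells were near those of all genes. Irf8, an interferon-induced factor that activated T cells also make, rose by 1.75 ± 0.12 in Cd4 cells and 1.32 ± 0.08 in Cd8 cells, and Cd86, a costimulatory ligand, by 0.58 ± 0.13 and 0.47 ± 0.06. Irf1, an interferon-response factor that acts upstream of Ciita, fell by 0.32 ± 0.05 and 0.35 ± 0.03, in the classes in which Ciita rose. In uncalled barcodes Ciita was higher in the knockdown too, at 0.639, 0.884, 2.51 and 2.42 CPM, on 4, 6, 7 and 7 UMIs. The part of free RNA in the rise of Ciita in T cells was not tested. H2-Ob, an inhibitor of the DM heterodimer, fell by 0.67 ± 0.17 in Cd4 cells and 0.32 ± 0.09 in Cd8 cells, and its partner H2-Oa by 0.68 ± 0.07 in Cd8 cells. Ctsb was the 1 list gene that rose in Foxp3 cells (0.53 ± 0.09, adjusted p = 0.0097).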

How the data were processed

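The deposited values are UMI counts, which the authors made without normalization from 3′ 10x libraries with Cell Ranger (6.1.1 in the file headers) against mm10; the submitters' processing notes also name Seurat 4.0.0. The filtered matrices gave the called barcodes and the raw matrices the uncalled ones. The 7 members, the gene and marker lists and the classes were chosen with earlier results of these data known. Counts were summed per library and class and tested with edgeR 4.0.16 in R 4.3.3 (quasi-likelihood test, TMM, filterByExpr, two-sided, no block), with SEs derived from F and Benjamini-Hochberg adjustment over all genes tested. Fits over several classes had library as a block. In them a member was counted only where it passed the filter within each T cell class compared, a limit set after seeing the data. Named were the 7 members, 24 pathway genes and the 10 genes most like the members among those with a UMI in at least 20% of C1q-positive cells of every library. Some members of the lists are not reported here by name. Marker lists covered macrophages, monocytes, dendritic, B, T and NK cells, tumor or stroma, and granulocytes. In C1q-positive cells, monocyte markers summed to 246 to 363, NK markers to 1.60 to 14.1 and tumor or stroma markers to 56.8 to 75.6 CPM. Doublets were scored from simulated doublets (2 per cell, 50 neighbors, 30 components of 2000 genes) and removed in an alternative only, which left 7867, 6759, 4683 and 6056 barcodes, as were the study's limits of 200 to 3000 genes and at most 5% mitochondrial UMIs. Without limits cells of high UMI counts stayed in, and because the T cell classes exclude any C1q UMI, they leave out more cells where free C1q RNA is higher. A count of 0 allows up to 3 counts; intervals cover counting error only. Alternatives were DESeq2 1.42.0, other scaling and filters, a replicate block, other cell choices and leaving out each library. Replicate numbers are not tied to shared material in the labels, and deviations of same-numbered libraries correlated at -0.11 to 0.13.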

Additional observations from a re-analysis of the deposited data

Results flagged for a closer look

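The knockdown's effect differed between cell classes for 16 pairs of a member and a T cell class, by the interaction test of edgeR with Benjamini-Hochberg adjustment, where 9.51% of all genes passed in that direction in Cd4 cells, 8.42% in Cd8 cells and 3.48% in Foxp3 cells. With only the C1q-positive cells that lacked a Cd3 UMI in the comparison, 1, 4 and 0 members passed and 3 of the 16 differences turned negative. Each value is the log2 fold change in the T cell class minus that in C1q-positive cells, so a positive value means a rise in the T cells relative to C1q-positive cells. In Cd4 cells the differences were 1.76 for H2-Aa, 2.13 for H2-Ab1, 1.84 for H2-Eb1, 1.17 for Cd74, 0.66 for H2-DMa and 2.39 for Ciita, with adjusted p from 0.00027 (H2-Eb1) to 0.0092 (Ciita). In Cd8 cells they were 2.47 for H2-Aa, 2.55 for H2-Ab1, 2.81 for H2-Eb1, 1.76 for Cd74, 0.55 for H2-DMa and 2.82 for Ciita, with adjusted p from 4.9e-08 (H2-Eb1) to 0.0046 (H2-DMa). In Foxp3 cells they were 2.57 for H2-Ab1, 1.74 for H2-Eb1, 1.65 for Cd74 and 1.09 for H2-DMa, with adjusted p from 0.00019 (Cd74) to 0.023 (H2-Ab1). For H2-DMa the positive values stand for a smaller fall in T cells than in C1q-positive cells. Leaving out 1 library ended many of these calls. Without control library 1 those of Cd74 (0.49, adjusted p = 0.068), H2-DMa (0.32, 0.155) and Ciita (1.27, 0.246) were lost in Cd4 cells and that of H2-DMa (0.24, 0.239) in Cd8 cells, while H2-Aa, H2-Ab1 and H2-Eb1 in Cd4 cells came to 1.06, 1.21 and 1.12 and H2-Ab1 in Foxp3 cells to 1.69 and kept theirs. Without knockdown library 1 the calls of Cd74 (adjusted p = 0.252), H2-DMa (0.2003) and Ciita (0.133) in Cd4 cells, of H2-DMa in Cd8 cells (0.159) and of H2-DMa (0.287), H2-Ab1 (0.44), H2-Eb1 (0.52) and Cd74 (0.162) in Foxp3 cells were lost. Without knockdown library 2 those of H2-Aa (0.161), H2-Ab1 (0.089), H2-DMa (0.070) and Ciita (0.115) in Cd4 cells, of H2-DMa (0.0896) and Ciita (0.169) in Cd8 cells and of H2-DMa (0.187), H2-Ab1 (0.233) and H2-Eb1 (0.087) in Foxp3 cells were lost. Without control library 2 all 16 calls held, with 1.90 for Cd74 in Cd4 cells and 0.83 for H2-DMa in Cd8 cells.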

How the results depend on the processing

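The direction of H2-Aa, H2-Ab1, H2-Eb1 and Cd74 in C1q-positive cells turned under 4 choices of cells. Their log2 fold changes were 0.54, 0.77, 0.75 and 0.44 within the study's limits, 0.46, 0.65, 0.64 and 0.38 without called doublets, 0.40, 0.58, 0.58 and 0.35 without Cd3 UMIs, and 0.50, 0.65, 0.64 and 0.43 with at least 10 C1q UMIs and no Cd3 UMI. H2-DMb1 came to 0.35, 0.024, 0.074 and 0.15 under these choices, and H2-DMa to 0.025 within the study's limits. Genes called in C1q-positive cells (2251) numbered 407, 102, 114 and 89 under them, 4208 with at least 1 C1q UMI, 985 with DESeq2, 639 where a log2 fold of 1 or more either way was also asked, and 474 to 3409 when 1 library was left out, fewest without knockdown library 1 (474) and knockdown library 2 (662) and most without control library 2. Fewer cells, and so fewer genes tested, enter the smaller choices. With that fold limit the count was 1169 in all called barcodes (8611), 971 in Cd4 cells (4507), 999 in Cd8 cells (5853) and 78 in Foxp3 cells (401). With DESeq2 it was 2364 in Cd4, 3583 in Cd8 and 199 in Foxp3 cells, and without a filter on low counts 762 in Foxp3 cells. The cause of these differences was not tested.

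With replicate number as a block, the counts were 1427 in C1q-positive and 706 in Foxp3 cells, 8670 in all called barcodes, 4314 in Cd4 and 5945 in Cd8 cells, and of the members' calls in these 5 comparisons only that of H2-Eb1 in Foxp3 cells changed. Same-numbered C1q-positive sums deviated apart (-0.11), and a crossed pairing gave 2884 calls.

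Leaving out 1 library gave 343 to 647 calls in Foxp3 cells, 930 to 2300 for the effect in Cd4 minus C1q-positive cells, 626 to 2063 in Cd8, 71 to 882 in Foxp3 and 1901 to 2661 for Cd8 against Cd4 levels. Among members it moved Cd74 in Cd4 cells from -0.14 (without control library 1) to 0.61, H2-DMa in Foxp3 cells from -0.11 to 0.087, Ciita in Foxp3 cells from -0.46 to 0.34, the Foxp3 minus C1q-positive effect from -0.39 to 2.90 for Ciita, and the Foxp3 minus Cd4 level from -0.30 to 0.36 for H2-Aa, -0.044 to 0.35 for H2-Ab1 and -0.16 to 0.047 for H2-DMa. The share of cells with a UMI at 1000 UMIs, knockdown minus control, moved from -3.55 to 3.37 percentage points for H2-Aa and from -6.09 to 0.322 for Cd74 in C1q-positive cells, and from -0.373 to 0.537 for H2-Aa in Foxp3 cells. At 500 UMIs it was 1.44 for H2-Aa in C1q-positive cells.

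Chosen after the data had been seen were the fits with 10 C1q UMIs, with the crossed pairing, and with C1q-positive cells lacking a Cd3 UMI in the interaction, and all alternatives of the interaction and level fits. The interaction counts with those cells were 359, 354 and 196 in Cd4, Cd8 and Foxp3 cells, and members turned to -0.29 (Cd74) and -0.36 (H2-DMa) in Cd4 and -0.46 (H2-DMa) in Cd8 cells. H2-DMa came to 0.039 in Foxp3 cells without other antigen-presenting genes, and its Foxp3 minus Cd4 level to 0.012 without doublets. The rise in the C1q-positive share of class II UMIs, 14.9 percentage points, was 20.3 within the study's limits and 9.76 without doublets. The mean I-A/I-E tag per Foxp3 cell fell by 1.04 UMIs, while its share of tag UMIs rose by 22.0 per 10000.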

Other observations

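Cells without any C1q UMI but with at least 5 UMIs of H2-Aa, H2-Ab1 and H2-Eb1 together numbered 25, 19, 22 and 20 in the order used above. They held 76.8, 67.8, 44.6 and 47.1% of those genes' UMIs outside cells with a C1q UMI. Of these cells 14, 10, 13 and 9 held at least 3 UMIs of the B cell markers (among them Cd79a, Cd79b and Ms4a1), 5, 0, 0 and 7 of myeloid markers, and 0 of the dendritic markers in every library. The limits of 5 and 3 UMIs were chosen after the data had been seen.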
